A study of Drosophila melanogaster with 38 samples.

Results

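Among the fly genes still known by a CG number, 106 differed in mean score over 12 times between flies on restricted food for life and flies on rich food. After flies were moved from rich to restricted food, the mean went at most a small part of the way to that of lifelong restriction. In some genes it lay on the far side of the old diet's mean. At single times many of them did not hold the old score, as described below. The 106 genes, each with 1 probe set that met the rule, were chosen by their measured values from 2891 probe sets of 2793 such genes with a mean expression score of at least 6 on the log2 scale, out of 9420 probe sets of any name at that level. A gene was taken when its mean difference between restricted and control food (RF minus CF) was at least 0.25 in size over 12 paired times, had 1 sign at 10 or more of them, and when the mean difference of the switched flies (SF minus CF) was at most 0.25 of it. This last quotient is called the SF share below. An SF share of 0 means a score equal to that of CF, and a share of 1 a score equal to that of RF. A set of 11 CG genes was left out by name, and 2 of those, CG15533 and CG15534, met the thresholds. Of the 106 genes, 81 were higher and 25 lower in RF. Without 4 h, and likewise without 12 h, the rule took 171 genes, with 97 and 100 of the 106 among them. Without 8 h it lost 38 of the 106 and without 6 h it lost 24, and 46 were kept whichever single time was left out. These contrasts chose the genes, so their values are given as a description with no test.

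The flies were Canton-S females aged 40 days at the start of sampling, and RNA came from pooled heads and thoraces. CF flies stayed on control food, RF flies on restricted food with less sucrose and less yeast and the same agar, and SF flies ate control food until day 40 and restricted food from then on. Females had shared vials with males on both foods under a light and dark cycle. CF and RF were each measured on 13 arrays (0 to 72 h after the switch) and SF on 12 (2 to 72 h), 1 Affymetrix Drosophila 2.0 array for each cohort and time, so no time has a replicate array and every spread below is a spread over 12 times.

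Dietary restriction lengthens life in flies and many other animals, and in flies a change of diet in adult life moves the risk of death within days. A gene whose RNA differs after lifelong restriction, and does not follow the new food within 3 days, keeps the RNA level of the earlier diet over that span. CG numbers were given to predicted fly genes when the genome was annotated, and a gene keeps one until it is named. Many CG genes can still be placed in a protein family by sequence, and 33 of the 106 are grouped below by such roles, which were assigned from general knowledge after the values had been seen. The other 73 are left out of these groups, though for CG15818 a protein family is named below from the same general knowledge.

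Some arrays and marker genes bear on what follows. The 0 h arrays stood apart: their median correlation with the other arrays over the 9420 probe sets was 0.913 for CF and 0.855 for RF, against 0.955 to 0.984 for the 36 later arrays. The mean of 11 measured eggshell genes (of 14 listed), which follicle cells of the ovary make, was 8.57 in CF and 5.66 in RF at 0 h and ran from 10.2 to 13.1 on the later arrays, although the labelled tissue is head and thorax. Head and thorax markers were present, with the mean of 2 photoreceptor genes (of 8 listed) at 7.46 to 9.48 and that of 6 flight muscle genes (of 8) at 9.15 to 10.6. Marker means also moved with the cohorts. The mean of 7 midgut digestive genes (of 8) had medians of 11.7 (CF), 12.1 (RF) and 11.8 (SF), and was above CF at 12 of 12 times in RF and at 7 of 12 in SF. This shift lay in 4 Jonah genes of digestive serine proteases, Jon25Bii, Jon66Ci, Jon65Ai and Jon99Ci, which differed by 0.92, 0.88, 0.76 and 0.49 in RF and by -0.03, 0.14, 0.24 and 0.17 in SF. The trypsin genes alphaTry and betaTry were at 0.04 and 0.02 in RF, and the maltase gene Mal-A1 at -0.33. The flight muscle mean had medians of 9.81 (CF), 10.1 (RF) and 9.79 (SF), with TpnC4, a flight muscle troponin C gene, at 0.94 in RF and 0.06 in SF, and Act88F, the flight muscle actin gene, at -0.75 in RF and 0.28 in SF. The fat body mean (5 genes) was below CF at every time in both other cohorts, mostly through the storage protein gene Lsp2 (-3.17 in RF and -2.17 in SF) and fit (-0.70 and -0.50), with Yp1, Yp2 and Yp3 at -0.17 to -0.01. Male testis and accessory gland markers (4 genes) had a mean of 3.90 to 4.28. In whole-tissue RNA, fewer cells of a type and less RNA per cell cannot be told apart. The part of these shifts in the differences below was not tested. With the eggshell mean as a covariate of the mean differences, 73 of the 106 genes still met the thresholds, and with the flight muscle mean 57. These counts apply the rule again to the values that chose the genes, with the sign condition left unadjusted, so they do not measure that part. RF never crossed CF in the midgut and fat body means, so a fit to equal means is extrapolated there, and it kept 93 and 35.

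Of the 288 CG probe sets that met the RF part of the rule, 108 had an SF share of at most 0.25, 106 lay between, and 74 had a share of 0.75 or more. The split was unlike in the 2 directions. Among the 197 higher in RF, 81 (41.1%) had a share of at most 0.25 and 37 (18.8%) of 0.75 or more, and among the 91 lower in RF the numbers were 27 (29.7%) and 37 (40.7%). Probe sets of genes with a name showed a like order, with shares of at most 0.25 in 93 of 169 (55.0%) of those higher and in 29 of 104 (27.9%) of those lower. The SF share had a median of 0.06 in both directions, and it was below 0, with SF on the far side of CF, in 31 of the 81 higher and 9 of the 25 lower genes. The rule set no lower limit on the share, which went down to -0.60 in CG14105 and -0.58 in CG14036, so not every gene stayed close to CF.

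**Figure D1:**
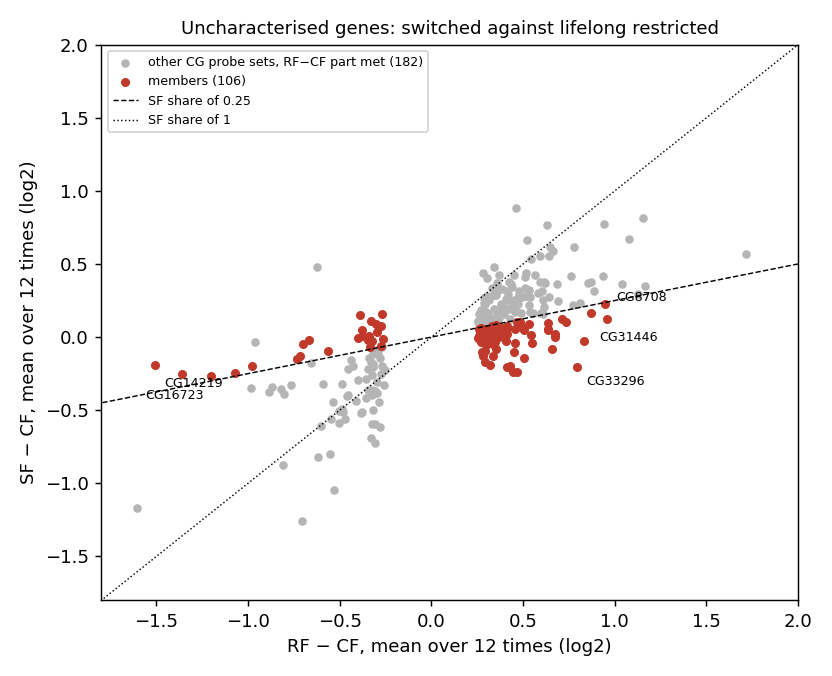
Mean difference from CF over 12 times (log2) of the 288 CG probe sets that met the RF part of the rule, with RF on the horizontal and SF on the vertical axis. Red points are the 106 genes described here, which lie beyond the dashed line of a share of 0.25 by construction, and grey points are the rest, including the genes left out by name.

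The differences were small for most genes. Those higher in RF had a median difference of 0.35 (0.25 to 0.96), a median fold of 1.27, and 18 of 81 reached 0.5 in size. Those lower had a median of -0.38 (-1.51 to -0.26), and 10 of 25 reached 0.5. None of the 81 higher genes differed 2-fold or more, and 4 of the lower did: CG14219, CG16723, CG32751 and CG33337. RF was above CF at 12 of 12 times in 24 of the 81 genes, beside 1.88% of all probe sets tested, and below it at 12 of 12 in 8 of the 25, beside 1.24%. The rule asked for 10 such times, so nothing is read from those counts. The scores of RF and CF overlapped for each of the 106 genes, with no overlap in 0.0955% of all probe sets tested. Between RF and SF, 4 genes did not overlap (CG31446, CG7381, CG17906 and CG8997), beside 0.0531%, or 5 probe sets in all.

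The largest differences were in a family of membrane-bound acyltransferase genes related to nrf-6 (nose resistant to fluoxetine), a gene family first found in the worm, where its mutants resist the drug fluoxetine. Its 4 members here, CG14219, CG14205, CG33337 and CG16723, were lower in RF and close to CF in SF. CG14219 scored 8.55 to 10.3 in CF (median 9.73), 7.39 to 9.19 in RF (median 8.04) and 8.82 to 9.96 in SF (median 9.31). RF was thus the low cohort, and its highest score lay inside the range of both others. The mean difference was -1.51 in RF (SE 0.24, 12 pairs), a score 2.84-fold lower, and -0.19 in SF (SE 0.17), and SF exceeded RF at 12 of 12 times.

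CG16723 ran from 5.22 to 7.53 in CF (median 6.71), from 4.53 to 6.25 in RF (median 5.29) and from 5.62 to 6.90 in SF (median 6.37). It differed by -1.36 in RF (SE 0.24) and by -0.25 in SF (SE 0.20), and SF was above RF at every one of the 12 times. CG33337 had CF, RF and SF medians of 7.83, 6.92 and 7.72, with differences of -1.07 (SE 0.28) and -0.25 (SE 0.24). Here the cohorts overlapped widely, and RF was above CF at 2 times. CG14205 had medians of 10.9, 9.90 and 10.7 in CF, RF and SF, and differences of -0.98 (SE 0.20) and -0.20 (SE 0.16). A second probe set of CG16723, at a mean score of 4.81 and so below the level asked for, differed by -0.36 in RF and by 0.02 in SF.

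CG32751 was lower in RF as well. It is counted among the other enzyme genes below, and its protein family was not checked here. Its scores were 4.92 to 8.49 in CF (median 6.58), 4.28 to 6.02 in RF (median 5.39) and 5.30 to 8.73 in SF (median 6.03). The mean difference was -1.20 in RF (SE 0.24) and -0.27 in SF (SE 0.29). SF minus CF averaged 0.44 over the 6 times at 2 to 18 h and -0.98 over the 6 at 24 to 72 h. The early values ran from -0.73 to 1.81, the highest at 18 h, and their mean was 0.17 without that time, a setting chosen after seeing the data.

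The next largest lower genes had tighter scores. CG7381 ran from 11.1 to 12.0 in CF, from 10.4 to 11.2 in RF and from 11.3 to 11.7 in SF, so RF lay wholly below SF. It differed by -0.73 in RF (SE 0.05) and by -0.15 in SF (SE 0.08). CG7025, a zinc carboxypeptidase gene of the kind that trims amino acids from the ends of peptides, had CF, RF and SF medians of 8.98, 8.31 and 8.77, and differences of -0.72 (SE 0.10) and -0.13 (SE 0.09). For CG17906 the medians were 6.83, 6.03 and 6.73, with RF wholly below SF, and the differences were -0.70 (SE 0.13) and -0.05 (SE 0.08). CG10182 differed by -0.67 in RF (SE 0.11) and by -0.02 in SF (SE 0.10), and CG31636 by -0.56 (SE 0.10) and -0.10 (SE 0.12).

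A set of closely placed genes had small differences with little spread. CG7953 scored 14.1 to 14.4 in CF, 13.6 to 14.2 in RF and 14.2 to 14.5 in SF, a difference of -0.40 in RF (SE 0.05) and of -0.01 in SF (SE 0.03). SF was nearer to CF than to RF at 12 of 12 times. CG7968 differed by -0.39 (SE 0.07) in RF and by 0.15 (SE 0.07) in SF, and CG8997 by -0.30 (SE 0.04) and 0.04 (SE 0.03). Here the spread over times was small beside the difference in RF. CG7953 and CG8997 scored near the top of the scale, where the highest mean of the 9420 probe sets was 15.1. Whether this narrowed their differences and spread was not tested. The gene between CG8997 and CG7953, CG7916, is not among the 106 because RF was below CF at 9 times, and it differed by -0.25 in RF and by 0.17 in SF.

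Of the genes higher in RF, CG31446 had the largest difference. It scored 8.77 to 9.61 in CF (median 9.001), 9.60 to 10.6 in RF (median 10.01) and 8.57 to 9.59 in SF (median 9.28). RF and SF did not overlap, and the lowest RF score lay just under the highest CF score. The mean difference was 0.96 in RF (SE 0.10), a score 1.94-fold higher, and 0.12 in SF (SE 0.11), where 6 of 12 times were above CF. CG8708, of a galactosyltransferase family that adds sugar to proteins, had CF, RF and SF medians of 7.22, 8.23 and 7.49, with differences of 0.95 (SE 0.13) and 0.22 (SE 0.17). Its share of 0.236 was among the highest the rule allowed.

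CG8661 had medians of 10.6, 11.5 and 10.8 in CF, RF and SF, and differed by 0.87 in RF (SE 0.09) and by 0.17 in SF (SE 0.13). CG15657 had medians of 6.59, 7.43 and 6.64 and differed by 0.83 (SE 0.12) and -0.03 (SE 0.19). CG33296 scored 5.69 to 7.16 in CF, 6.61 to 8.00 in RF and 5.25 to 6.69 in SF, a difference of 0.80 in RF (SE 0.22) and of -0.21 in SF (SE 0.10). SF minus RF was -1.001, the widest gap between these 2 cohorts among the 81, with SF below RF at 12 of 12 times. CG7300 (0.67 in RF, SE 0.15, and 0.02 in SF, SE 0.14), CG15818, which encodes a C-type lectin, a sugar-binding protein (0.64, SE 0.12, and 0.05, SE 0.08), and CG5767 (0.64, SE 0.11, and 0.06, SE 0.14) followed the same order of cohorts.

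**Figure D2:**
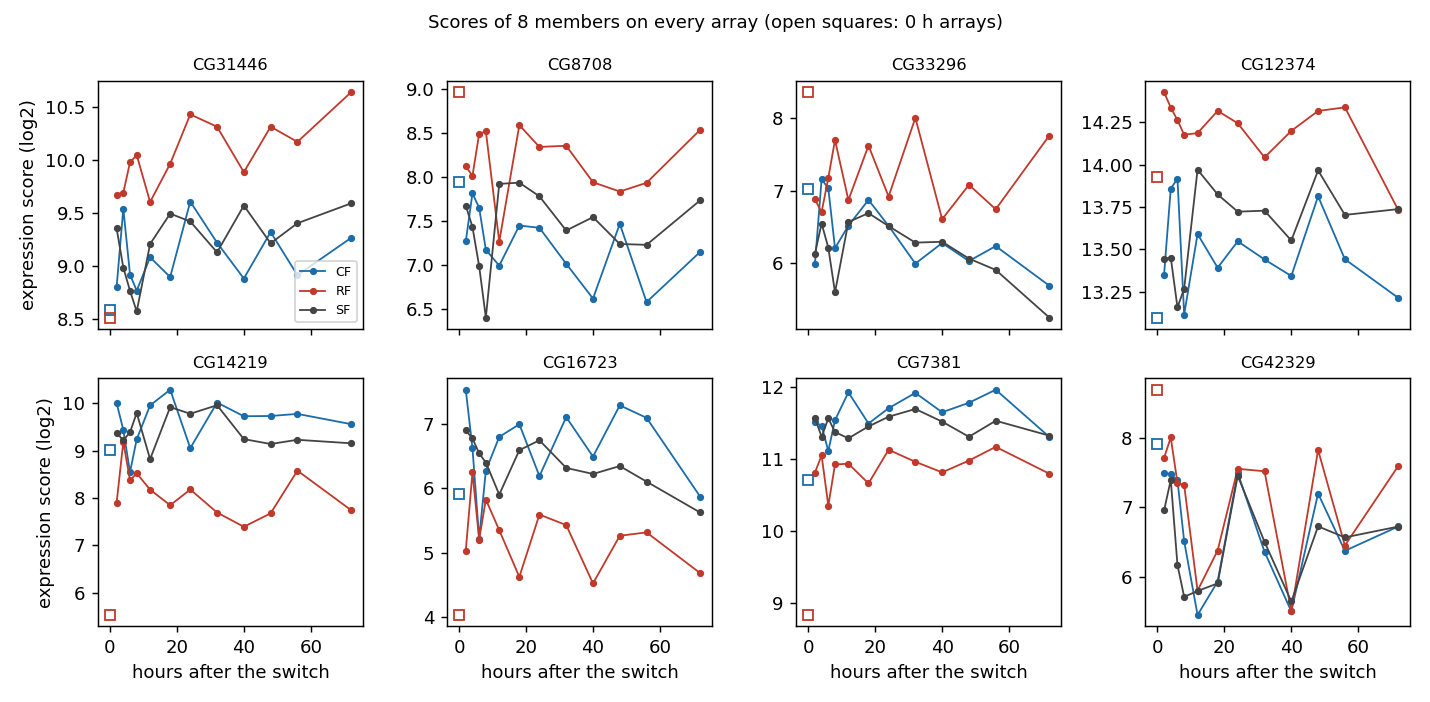
Expression scores (log2) of 8 genes on every array against hours after the switch, for CF (blue), RF (red) and SF (grey), with open squares for the 0 h arrays. Mean SF differences from CF were 0.12 in CG31446 and -0.19 in CG14219. At 2 to 18 h their single differences ran from -0.55 to 0.60 and from -1.14 to 0.84. CG42329 was lower at 12 and 40 h than at 24 and 48 h in each of the 3 cohorts.

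Proteases and peptidases numbered 9 among the genes given a role, 7 higher and 2 lower in RF. Over all 106 genes 81 (76.4%) were higher, so nothing is read from the direction counts of the role groups. Such enzymes break dietary and other proteins into peptides and amino acids. CG12374, a zinc carboxypeptidase gene, scored 13.1 to 13.9 in CF (median 13.4), 13.7 to 14.4 in RF (median 14.3) and 13.2 to 13.97 in SF (median 13.7). It differed by 0.71 in RF (SE 0.07) and by 0.13 in SF (SE 0.10). The same enzyme class held genes of both directions, with CG14820 at 0.73 in RF (SE 0.06) and 0.11 in SF (SE 0.10), CG3097 at 0.37 (SE 0.06) and 0.02 (SE 0.12), and CG7025 on the lower side.

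CG15254, of the astacin family of metalloproteases, had medians of 6.82, 7.15 and 6.64 in CF, RF and SF and differed by 0.67 in RF (SE 0.14) and by 0.00 in SF (SE 0.17). Serine protease family genes CG9672 (0.53 in RF, SE 0.08, and 0.09 in SF, SE 0.09) and CG30002 (0.45, SE 0.13, and -0.10, SE 0.19) were higher, and CG30289 was lower (-0.33, SE 0.17, and 0.11, SE 0.11). The aminopeptidase gene CG31233 differed by 0.47 (SE 0.08) and 0.10 (SE 0.10). The 4 Jonah genes of the midgut list were higher in RF as well, while its other 3 genes were at -0.33 to 0.04. Within cohorts, 4 of the 81 higher genes followed the midgut mean over the 36 arrays with a correlation above 0.5, and 1.18% of all probe sets tested did.

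Lipid enzymes were 5 higher and 1 lower. The fatty acid elongase genes CG6660 and CG9459, whose products lengthen fatty acid chains, differed by 0.41 (SE 0.05) and 0.30 (SE 0.04) in RF and by 0.07 (SE 0.09) and 0.05 (SE 0.08) in SF. CG4020, a fatty acyl-CoA reductase gene (such enzymes make fatty alcohols), was at 0.31 (SE 0.05) and 0.05 (SE 0.07). The thioesterase gene CG16985 was at 0.37 (SE 0.06) and 0.00 (SE 0.12), and the phospholipase gene CG7365 at 0.36 (SE 0.08) and 0.06 (SE 0.08). The gene with the opposite sign was CG9743, of the desaturase family that puts double bonds into fatty acids, at -0.34 (SE 0.08) in RF and 0.01 (SE 0.07) in SF.

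Each of the 4 transporter and carrier genes was higher in RF: CG4822, an ABC transporter (0.32, SE 0.09), CG13793, of the neurotransmitter transporter family (0.30, SE 0.11), CG18327, a mitochondrial carrier (0.27, SE 0.07), and CG10300, of the CRAL-TRIO group of lipid-binding proteins (0.26, SE 0.07). Their SF differences ran between -0.11 and 0.02. Of the 10 other enzyme genes, 9 were higher. CG8353, a cytidine deaminase gene of nucleotide salvage, differed by 0.66 in RF (SE 0.11) and by -0.08 in SF (SE 0.18). The aminoacylase genes CG6733 and CG17109, whose products free amino acids from acyl groups, were at 0.40 (SE 0.09) and 0.30 (SE 0.06) in RF and at 0.02 (SE 0.11) and 0.04 (SE 0.10) in SF. CG9485, the gene of glycogen debranching enzyme, which opens the branch points of stored glycogen, differed by 0.30 (SE 0.07) in RF and by -0.04 (SE 0.05) in SF. CG15117, a beta-glucuronidase gene, was at 0.31 (SE 0.05) and 0.05 (SE 0.08).

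**Figure D3:**
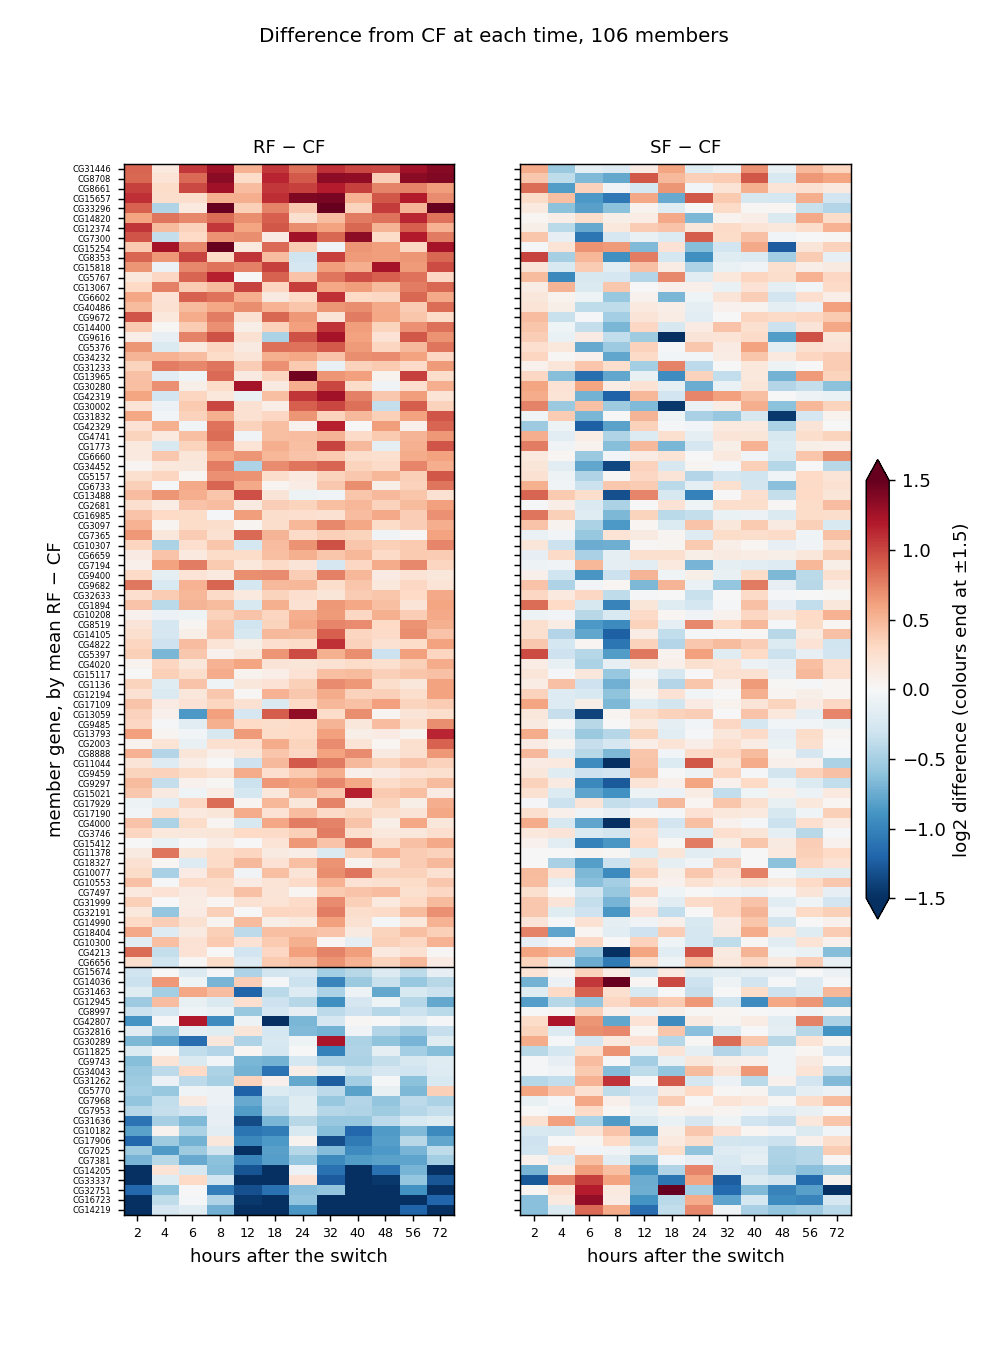
Difference from CF (log2, colours end at 1.5 in size) of each of the 106 genes at each of 12 times, for RF at left and SF at right, ordered by the mean RF difference. RF holds 1 colour along most rows, and SF is mixed, with much blue among the higher genes at 6 and 8 h.

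Single times differed more than the means over 12 times let show. Among the 81 higher genes, RF was above CF in 46 at 4 h (median 0.08) and in 81 at 56 and 72 h (medians 0.39 and 0.56). SF was above CF in 70 at 2 h (median 0.24), in 23 at 6 h (median -0.34) and in 13 at 8 h (median -0.51), and again in 61 at 12 h (median 0.19). The rule fixed the RF sign at most times and capped the move of the SF mean towards RF. For that reason nothing is read from the contrast between RF and SF.

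At 2, 4, 6, 8, 12, 18, 32, 48 and 56 h the SF median of the 81 genes and the eggshell mean of SF differed from CF in opposite directions. The eggshell mean of SF was 1.98 above CF at 8 h and 0.82 above it at 6 h, and 1.02 and 1.08 below it at 2 and 12 h. At 18 h it was 2.18 above CF, with SF above CF in 36 of the 81 genes (median -0.04). The signs were the same at 24, 40 and 72 h. At 40 h SF was above CF in 66 of the 81 genes (median 0.26), and the eggshell mean was 0.18 above CF as well. At 48 h the signs were opposite but the eggshell mean was only 0.02 above CF, with SF above CF in 25 of the 81 genes (median -0.12). RF exceeded CF by 1.79 in the eggshell mean at 4 h, the time with the fewest higher genes on the side of the rule. Over the 36 arrays, within cohorts, 33 of the 81 higher and 1 of the 25 lower genes had a correlation below -0.5 with the eggshell mean, beside 24.0% of all probe sets tested, and 1 and 4 had one above 0.5, beside 31.2%. The 4 lower genes above 0.5 were CG14036 (0.89), CG31262 (0.80), CG11825 (0.80) and CG32816 (0.57). The eggshell list was not alone in this. With the flight muscle mean, 32 of the 81 higher genes were above 0.5 (25.2% of all) and 1 below -0.5 (30.3%). With the fat body mean, 25 were above 0.5 (18.8%) and 0 below -0.5 (19.3%). Of the 25 lower genes, 0 were above 0.5 with either mean, and 3 and 2 were below -0.5. These correlations describe arrays that share each cohort's flies and 1 normalization.

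**Figure D4:**
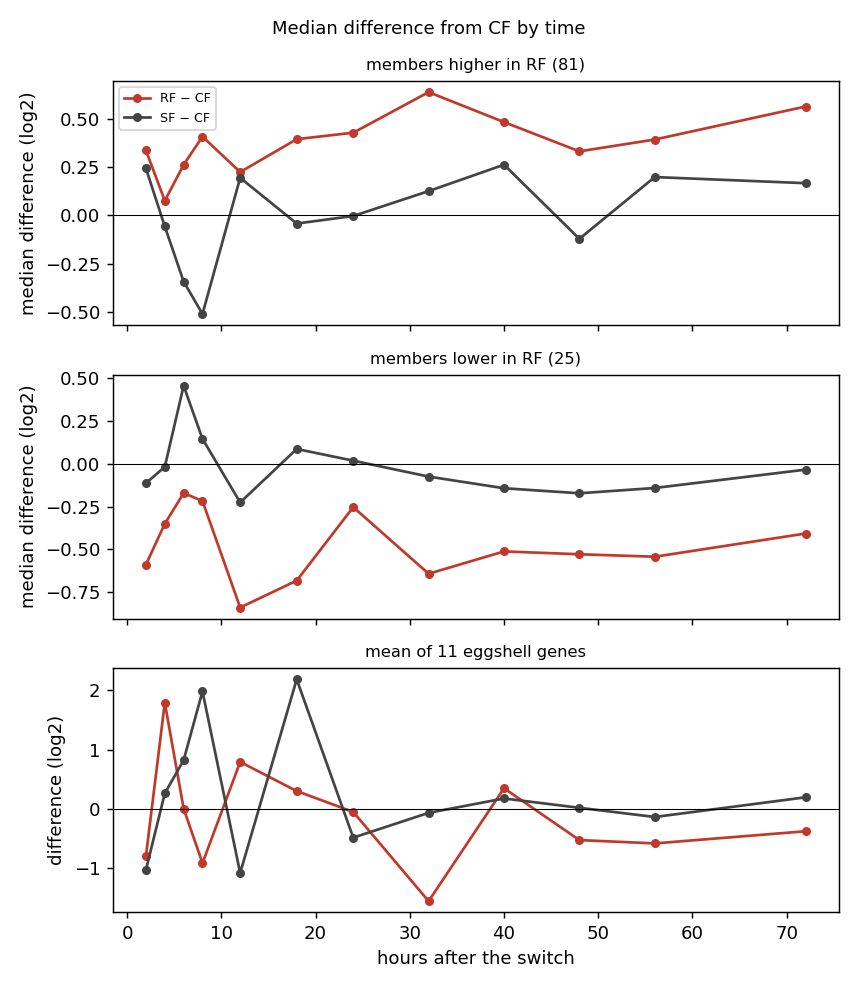
Median difference from CF (log2) by hours after the switch for RF (red) and SF (grey), over the 81 higher genes at top and the 25 lower genes in the middle, with the difference in the mean of 11 eggshell genes below. The SF median of the higher genes dips to -0.51 at 8 h, where the eggshell mean of SF was 1.98 above CF. It was highest at 40 h, at 0.26, where the eggshell mean of SF was 0.18 above CF.

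Early and late values of the SF share are given as a description, since the rule capped the share over the whole course and a higher late share goes with a lower early one. Over 2 to 18 h the SF share exceeded 0.25 in 6 of the 81 higher and 2 of the 25 lower genes, and over 24 to 72 h in 38 and 10. The median later share was 0.21 in the higher and 0.13 in the lower genes. In 8 higher and 2 lower genes the later share was 0.5 or more. CG32816 had the highest, at 0.85 (-0.39 in SF and -0.46 in RF at 24 to 72 h), followed by CG10553 at 0.75 (0.24 and 0.32), CG7365 at 0.66 (0.17 and 0.26) and CG32751 at 0.64 (-0.98 and -1.52). At the other end, CG30289, CG34043 and CG31832 had later shares of -1.33, -0.91 and -0.87.

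The 0 h arrays, taken before SF existed, were not used to choose the genes. With 1 array a cohort they allow no test, and both stood apart from the rest as given above. All 25 lower genes were lower in RF at 0 h too, beside 55.0% of the probe sets tested, and 21 of them were so by at least 0.25, where 24.4% of the 9420 probe sets tested were lower by that much. For CG14219 the score was 9.02 in CF and 5.53 in RF, for CG14205 10.3 and 7.69, and for CG33337 7.48 and 4.80. The median 0 h difference of the 25 was -1.32, a larger gap than their later median of -0.38.

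The higher genes were divided at 0 h. Of 81, 49 were higher in RF, beside 45.0% of the probe sets tested, 33 of them by at least 0.25, where 14.4% of all probe sets tested were higher by that much, and 15 were lower by at least 0.25. CG15657 was at 7.20 in CF and 8.86 in RF, CG33296 at 7.03 and 8.36, CG8708 at 7.94 and 8.97, and CG12374 at 13.1 and 13.9. The reverse held for CG18404 (11.4 in CF and 6.56 in RF), CG9682 (8.76 and 4.56), CG17109 (8.24 and 5.83), CG5767 (10.7 and 8.63) and CG8661 (9.90 and 8.17). CG31446, the gene with the largest later difference, was level at 8.58 and 8.52. At 0 h the eggshell mean was 5.66 in RF against 8.57 in CF, and the part of this in the 0 h differences cannot be told apart from diet.

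**Figure D5:**
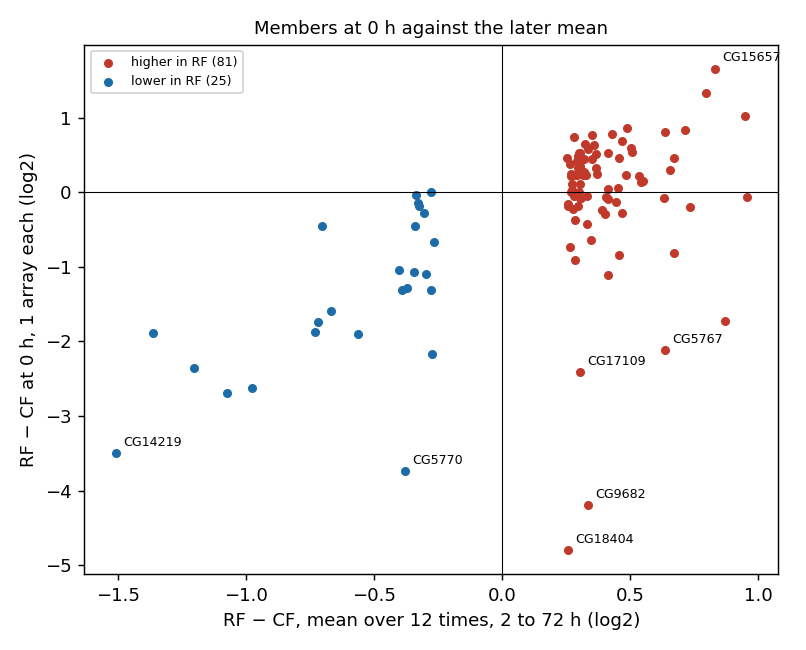
RF minus CF at 0 h (1 array each) against the mean RF minus CF over 2 to 72 h, both log2, for the 81 higher (red) and 25 lower (blue) genes. The blue points lie below 0 at 0 h, and the red points lie on both sides, down to -4.80 for CG18404.

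Some of the genes sit beside each other in the genome. In the RefSeq gene order of assembly Release 6 plus ISO1 MT, 22 of the 106 form 12 pairs with at most 2 protein-coding genes between them, 10 of the pairs with none. In 11 of 12 pairs both genes had the same direction. With 81 of the 106 genes higher in RF, many pairs would share a direction in any gene order, and some pairs share a gene. Pairs were not counted over all probe sets tested, so nothing is read from these counts. The runs were CG10182, CG33337 and CG16723, CG14219 and CG14205, and CG8997, CG7953 and CG7968 among the lower genes, and CG9682 and CG18404, CG17109 and CG6733, CG42329 and CG5397, CG33296 and CG13793, CG30002 and CG1773, and CG14820 and CG10077 among the higher. The pair with opposite directions was CG5770 (-0.38 in RF, SE 0.12) and CG5767 (0.64, SE 0.11), which were both lower in RF at 0 h, by -3.74 and -2.11. Genes that arose by duplication can be alike in sequence, and how far neighbouring probe sets could read each other's RNA was not tested.

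Change over time was tested on the mean of the 3 cohorts at each time, which did not choose the genes. It is orthogonal to the differences that did, and independent of them only where the cohorts vary alike, which was not tested. For a 24 h rhythm, limma (moderated F test of a 24 h cosine and sine on 12 time means, Benjamini-Hochberg over 9420 probe sets) called 2 of the 106 genes, beside 0.584% of all probe sets tested (55), and 15 of the 106 had an unadjusted p under 0.05 (702 of all tested). CG42329 had an amplitude of 0.98 on the log2 scale (adjusted p = 1.13e-04 by limma). It scored 7.50, 7.56 and 7.46 in CF, RF and SF at 24 h, and 5.50, 5.50 and 5.64 at 40 h. At 48 h it was back at 7.20, 7.83 and 6.73, and at 12 h it had been at 5.44, 5.80 and 5.79. The gene was thus lower at 12 and 40 h than at 24 and 48 h in each cohort. At other times the cohorts parted, with 7.39, 7.35 and 6.17 in CF, RF and SF at 6 h, and 6.36, 7.52 and 6.50 at 32 h. The call of CG42329 held without any one of the 12 times (adjusted p 1.57e-04 to 0.00195 by limma).

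The other call was CG32751, with an amplitude of 0.89 (adjusted p = 0.0151 by limma). Its highest scores were 8.49 in CF at 40 h, 8.73 in SF at 18 h and 7.84 in SF at 40 h, while RF never exceeded 6.02. The call ended without 18 h (adjusted p = 0.0593), without 40 h (adjusted p = 0.182) and in CF and RF alone (adjusted p = 0.407), all by limma.

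For the 6 times at 24 to 72 h against the 6 at 2 to 18 h, limma called 1 of the 106 genes, beside 0.265% of all probe sets tested (25), with 40 of the 106 at an unadjusted p under 0.05 (2750 of all tested). This gene was CG5397, the neighbour of CG42329, whose mean over cohorts fell from 8.60 to 8.13, a change of -0.47 (SE 0.083, adjusted p = 0.0460 by limma). In SF it scored 7.91 to 9.02 at the early and 7.77 to 8.31 at the late times, so the ranges overlapped. Its adjusted p ran from 0.0157 to 0.110 when single times were left out, and the count of genes called moved from 0 to 20, so this call depends on which times are kept. Late and early times also differ in hour of day.

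The thresholds cut through a continuum. Just inside the limit on size were CG6656 (0.2520 in RF), CG4213 (0.2582) and CG10300 (0.2584), and just outside were CG12643 (0.2497), CG13920 (0.2496) and CG5639 (0.2471). Shares just inside were 0.241 for CG10553 and 0.236 for CG8708 and CG6659, and just outside 0.258 for CG3868, 0.263 for CG12974 and 0.264 for CG14495. Among the genes with larger differences just outside, CG42397 was at 1.13 in RF and 0.30 in SF (share 0.264) and CG13947 at 1.72 and 0.57 (share 0.332). By level, CG32751 (mean score 6.01), CG1773 (6.06) and CG16723 (6.08) were just inside, CG6867 (5.92), CG15186 and CG1674 (both 5.87) just outside, and 16 CG probe sets below the level met the other thresholds. CG14153, CG11263 and CG7227 had the sign at 9 times and were left out for that.

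A further probe set was present for 8 of the genes. It was at the asked level for 2, and neither followed: CG4741 was at -0.04 in RF and CG10077 at 0.02 on the second probe set, against 0.41 and 0.27 on the one that met the rule. The other 6 lay below the level, with RF differences of -0.36 to 0.08.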

How the data were processed

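RNA of head and thorax was measured on 38 Affymetrix Drosophila 2.0 arrays. The paper describes a filter, quantile normalization and a summary by RMA, and log2 expression scores per probe set were deposited. The deposited scores still held the array controls. Whether the paper's filter had been applied to them is not stated, and it was not applied here. An array carries no count of molecules, and the number of arrays limits the precision. The genome build was not given in the sources used here. Of 18952 probe sets, 183 array controls were left out, and 9420 of the other 18769 had a mean score of at least 6. Of these, 8345 had 1 gene symbol, 242 several and 833 none in the array annotation, and symbols were updated through gene IDs with the RefSeq table of Release 6 plus ISO1 MT (8328 matched, and 106 of the 106 genes described). Differences are means over 12 arrays paired by time, with SE. Those times are not replicates of a condition. Nothing in the labels says whether flies of different times came from separate cultures, so p-values measure the spread between these samples.

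The genes and gene lists were chosen with earlier results of these data known. Named genes were the 12 higher and 12 lower genes with the largest RF difference, those called by a time test, those nearest a threshold, neighbours and further probe sets. Examples from the role groups, and those given for 0 h, the eggshell correlation and later shares, were chosen after their values were seen. Time tests used limma 3.58.1 in R 4.3.3 on the 12 means over cohorts, with an adjusted p threshold of 0.05, and were tested on simulated data. Tables and figures used Python 3.11.15. No promoter or protein sequences were used here, so the planned motif counts and protein identities were not run. Alternatives covered array scaling, the level minimum, symbols, medians, single times, marker covariates, array weights, the unit of the fit and the cohorts averaged.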

Additional observations from a re-analysis of the deposited data

How the results depend on the processing

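Counts of genes that met the rule stayed within 1.5 times of 106 (81 higher, 25 lower) with each array centred on its median (96), a level of at least 5 or 7 or no level (119, 88, 122), symbols as printed in the array annotation (106), medians in place of means (88) and the eggshell mean as a covariate (76), and of the original 106 these kept 87, 106, 88, 106, 106, 65 and 73. Leaving out 1 time gave 86 to 171 genes, 62 to 132 higher, 23 to 45 lower and 60 to 132 with the RF sign at 0 h (74 with every time). The counts passed 1.5 times without 4 h (171) and without 12 h (171), where 97 and 100 of the 106 were kept, and 46 of the 106 were kept whichever single time was left out. Other settings were chosen after seeing the data. The flight muscle mean as a covariate gave 71 genes, with 50 higher, and kept 57. The midgut mean gave 149 and kept 93, and the fat body mean 112 and kept 35, but RF never crossed CF in either mean, so both values are extrapolated. The 6 times at which the eggshell means of RF and SF lay within 1 of CF gave 212 genes, 151 higher and 61 lower, and kept 75. The cause of these shifts was not tested.

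The time tests moved more. Late minus early calls among the 106 (1) and all 9420 (25) were 9 and 122 after centring and 8 and 189 with the eggshell covariate. At a level of 7 they were 2 and 32 of 8248 probe sets, with all 106 genes kept in whatever their level. With no level they were 0 and 9 of 18769. Array weights gave 35 and 2236, CF and RF alone 0 and 0, and no replicate block (36 arrays as units) 20 and 1099. Without 1 time they were 0 to 20 and 1 to 1663, the highest without 32 h and the next without 12 h (16 and 887). Without 2, 4, 6, 8, 24, 48, 56 or 72 h, 0 of the 106 were called. Rhythm calls (2 and 55) were 4 and 171 with the eggshell covariate, 9 and 486 with array weights, 1 and 20 in CF and RF alone, 7 and 306 with no replicate block, and 1 to 3 and 38 to 80 without 1 time. The differences between cohorts are paired by time throughout.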
